A study of Mus musculus with 20 samples.

Results

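The proteasome genes described here are the 43 rows of a table of 25219 mouse genes whose symbols begin with Psma, Psmb, Psmc, Psmd, Psme or Psmf and a digit, without the 3 inducible catalytic subunits Psmb8, Psmb9 and Psmb10. By role they are 8 genes of the alpha ring and 8 of the beta ring of the 20S core, 6 ATPases and 11 other subunits of the 19S particle, 3 chaperones of 19S assembly, and 6 activators or inhibitors of the core. The remaining gene, Psmc3ip, shares the symbol's stem but encodes a meiotic recombination factor. They were measured by RNA-seq in inguinal white adipose tissue (iWAT) and brown adipose tissue (BAT) of male mice, in 4 groups of 5 libraries. Ai-α4KO mice carried floxed alleles of α4, the phosphatase-binding protein encoded by Igbp1, and a CreERT2 recombinase driven by the Adiponectin promoter, which is active in adipocytes and not in the other cells of fat. Control mice carried the floxed alleles without the recombinase, although the labels call them WT. All mice were on a mixed C57Bl/6 background and received tamoxifen 5 times from 2 months of age, and tissue was taken 1 week after recombination. The labels do not say whether the same mice gave both tissues, so p-values measure the spread between these libraries.

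The proteasome is the main protease of the cytosol and nucleus for proteins marked with ubiquitin. Its 20S core is a barrel of rings, with outer rings of alpha subunits that gate the entrance and inner rings of beta subunits, of which Psmb5, Psmb6 and Psmb7 hold the cutting sites. The 19S particle caps the core, binds ubiquitin chains, removes them, and unfolds the substrate with a ring of ATPases. Cells with too little proteasome activity raise transcription of its genes through Nfe2l1, a factor of the CNC-bZIP family that is released from the endoplasmic reticulum, and in brown fat this pathway is known to sustain heat production in the cold. The α4 protein of this study is a partner of phosphatase catalytic subunits and is distinct from the ring subunit of the same short name, which Psma7 encodes.

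A pair of short motifs bears on that pathway, the antioxidant response core TGACNNNGC, which CNC-bZIP factors bind, and CCAAT, which NF-Y binds. RefSeq promoter windows of GRCm38.p6, 250 bases before to 50 bases after a start site, were matched by symbol for 36 of the 43 genes and searched on both strands. TGACNNNGC occurred in 6 of the 36 (16.7%) and in 12.4% of the 32851 windows of all genes. CCAAT occurred in 14 of the 36 (38.9%) and in 37.4% of all windows. The first motif was found in Psmb5, Psmb6, Psmc6, Psmd9, Psmd12 and Psme4, and no window held both motifs. The 250 bases upstream of 3 genes are given as examples. Psmb5 and Psmb6 are catalytic subunits with TGACNNNGC near the start site. Psmd10 is the gene with the largest rise after Psma8, with CCAAT 3 times (ATTGG on the other strand). The part of these motifs in the results below was not tested. Capitals mark the motifs, 5′ to 3′ on the strand of the gene. In Psmb5 (chr14:54617996-54618245, minus strand) the motif starts 47 bases before the start site, and in Psmb6 (chr11:70525107-70525356, plus strand) it starts 9 bases before it. In Psmd10 (chrX:140956712-140956961, minus strand) the motifs start 230, 47 and 24 bases before it.
Psmb5: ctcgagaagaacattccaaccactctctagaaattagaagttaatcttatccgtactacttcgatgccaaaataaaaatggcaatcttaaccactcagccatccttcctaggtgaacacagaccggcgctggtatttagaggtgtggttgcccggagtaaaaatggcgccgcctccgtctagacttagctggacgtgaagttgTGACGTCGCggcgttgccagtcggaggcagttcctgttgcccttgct
Psmb6: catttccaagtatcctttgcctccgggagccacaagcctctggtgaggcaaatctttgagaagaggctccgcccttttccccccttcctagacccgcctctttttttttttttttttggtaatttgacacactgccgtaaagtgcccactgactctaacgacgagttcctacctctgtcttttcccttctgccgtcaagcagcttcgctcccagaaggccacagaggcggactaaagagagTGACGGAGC
Psmd10: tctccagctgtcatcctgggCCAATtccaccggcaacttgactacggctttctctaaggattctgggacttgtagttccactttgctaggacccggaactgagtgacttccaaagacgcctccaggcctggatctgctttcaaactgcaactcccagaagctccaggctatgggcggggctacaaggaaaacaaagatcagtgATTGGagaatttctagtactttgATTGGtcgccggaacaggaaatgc

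Libraries held 24023371 to 50384446 counts. Values are CPM, counts scaled to the size of the library after correction for its composition within each tissue (TMM). Log2 fold changes are Ai-α4KO minus Control from the quasi-likelihood test in edgeR, and p was adjusted over all genes tested by the method of Benjamini and Hochberg, with 0.01 as the threshold. Igbp1, the targeted gene, was at 61.1, 74.2, 81.4, 72.1 and 68.6 CPM in Control and 11.4, 10.7, 11.7, 11.6 and 11.6 CPM in Ai-α4KO iWAT libraries 1 to 5. In BAT it was at 86.3, 97.6, 92.8, 88.8 and 82.6 CPM in Control and 13.1, 13.2, 16.5, 23.3 and 12.9 CPM in Ai-α4KO libraries, so the genotypes did not overlap in either tissue. Some libraries stood apart. Summed B cell markers (6 genes) were at 477 and 189 CPM in Control iWAT libraries 1 and 4 and at most 13.0 CPM in the other 8 iWAT libraries, and T cell markers (5 genes) were at 156 and 178 CPM in those same 2 libraries and at most 45.6 CPM in the others. Summed skeletal muscle markers (6 genes) were at 6198 CPM in Control iWAT library 4, 3647 CPM in Ai-α4KO iWAT library 1 and at most 159 CPM in the other iWAT libraries. In BAT they ran from 752 to 7887 CPM in Control and from 10787 to 35926 CPM in Ai-α4KO. The cell makeup also moved with genotype. All 6 macrophage, 4 neutrophil and 5 cell cycle markers were higher in Ai-α4KO libraries of both tissues, while 8 of 9 adipocyte markers in iWAT and 7 of 9 in BAT were lower. Endothelial markers were also lower (3 of 4 in iWAT and 4 of 4 in BAT), as were 4 of 5 brown adipocyte markers in iWAT and 2 of 5 in BAT. Another 2 brown adipocyte markers had estimates above 0 in BAT (median of the 5, -0.15). In BAT 3 of 5 T cell, 2 of 5 stromal and 5 of 6 muscle markers were higher. The brown adipocyte markers summed to 87.5 to 803 CPM in Control iWAT. In Ai-α4KO libraries macrophage markers summed to 7034 to 9460 CPM in iWAT, against 1081 to 1823 CPM in Control, and to 4031 to 6676 CPM in BAT, against 217 to 487 CPM in Control. In whole tissue, fewer cells of a type and less RNA per cell cannot be told apart, and the part of these markers in the results below was not tested except where a value is given.

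Proteasome genes higher in Ai-α4KO libraries of both tissues included a subunit of the alpha ring (Psma5), a subunit of the 19S particle (Psmd11) and a chaperone of its assembly (Psmd10), and those lower were Psmb3 and Psmd3, both in BAT. In Ai-α4KO iWAT 9 of the 42 genes tested were higher than in Control and 0 were lower (DESeq2 also gave 0 lower, and 24 of the 42 had an unadjusted edgeR p below 0.05 in either direction). Of all genes tested, 21.5% were called higher and 18.8% lower in iWAT, so the 21.4% of proteasome genes called higher was at the level of the background. In Ai-α4KO BAT 6 of 42, or 14.3%, were higher and 2 were lower, against 25% of all genes higher and 24.8% lower. The median log2 fold change of the 42 genes was 0.25 in iWAT (range -0.31 to 2.30) and 0.13 in BAT (range -0.61 to 3.78), and the medians over all genes tested were 0.01 and -0.03. Psma5, Psma8, Psmd10 and Psmd11 were called higher in both tissues, 4 of the 42 genes (3 without Psma8, which rests on few counts), where 15.2% of the 13975 genes tested in both were higher in both. Among the 42 only Psma8 was called at least 2-fold higher, in both tissues and on few counts, where 11.3% of all genes in iWAT and 18.2% in BAT did. Without Control iWAT libraries 1 and 4, with high lymphocyte markers, 6 genes were higher in iWAT and 1 was lower (Psmb7), where 18.3% of all genes were higher and 18.9% lower. Without Control iWAT library 4 and Ai-α4KO iWAT library 1, with high muscle markers, 11 were higher and 1 was lower (Psmd3), against 22.8% and 19.5% of all genes. When the mean log2 CPM of the muscle markers entered the fit as a score, 2 were higher in BAT (Psma5 and Psmd10) and 1 was lower (Psmb3). The share of all genes fell as well, to 13.9% higher and 14.4% lower. Summed muscle markers did not overlap between genotypes in BAT. Fits with this score, here and below, therefore cannot separate muscle from genotype. Without Control iWAT library 1 alone 2 genes were lower in iWAT, and without Ai-α4KO iWAT library 1 alone 1 was.

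**Figure D1:**
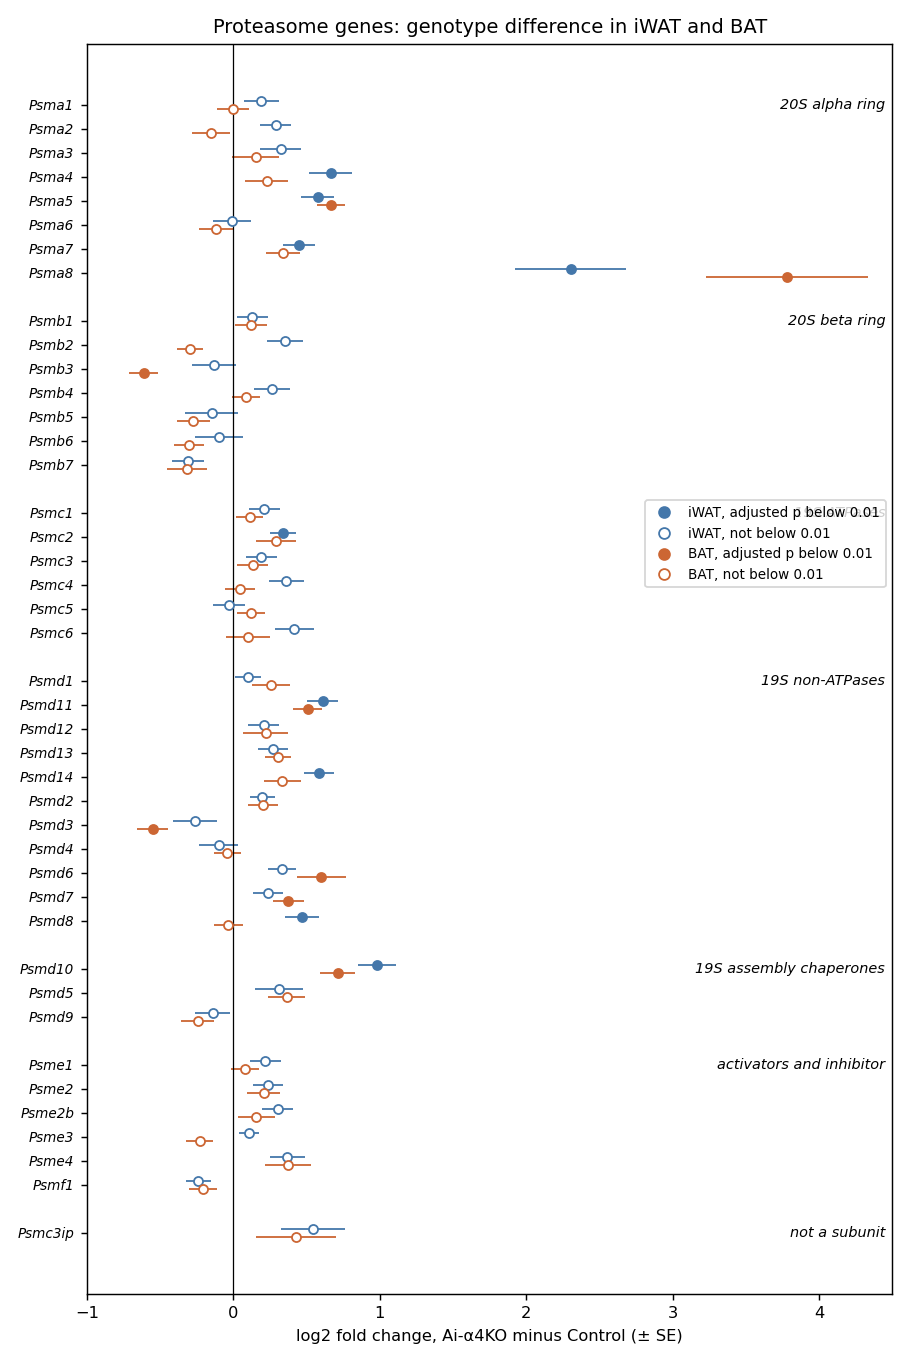
Log2 fold changes (x axis, Ai-α4KO minus Control, ± SE from edgeR, 5 against 5 libraries) of the 42 proteasome genes tested, by role. Filled points have an adjusted p below 0.01, and apart from Psma8 all estimates lie between -0.61 and 0.98.

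These counts depended on the scaling of the libraries. With library size alone, without composition factors, 19 proteasome genes were higher in iWAT and 22 in BAT, where 26% and 33.5% of all genes were called higher. The 9 and 6 genes named above were among them. By role this scaling called 4 of the 7 constitutive alpha genes, 1 of the 7 beta genes (Psmb2), 4 of the 6 ATPases, 6 of the 11 other 19S subunits and 2 of the 6 activators and inhibitors (Psme2b and Psme4) higher in iWAT. In BAT it called 3 alpha genes, 2 beta genes (Psmb1 and Psmb4), 4 ATPases, 8 other 19S subunits and 2 activators (Psme2 and Psme4) higher. That scaling moved the median of all genes to 0.13 in iWAT and 0.23 in BAT, and the proteasome genes moved with it, to 0.37 and 0.39. The distance between the 2 medians was 0.24 in iWAT and 0.16 in BAT under either scaling. As a share of all counts, before any composition factor, the 43 genes took 0.492% to 0.545% of Control iWAT libraries, 0.586% to 0.713% of Ai-α4KO iWAT, 0.524% to 0.567% of Control BAT and 0.653% to 0.714% of Ai-α4KO BAT, with no overlap between genotypes in either tissue.

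**Figure D2:**
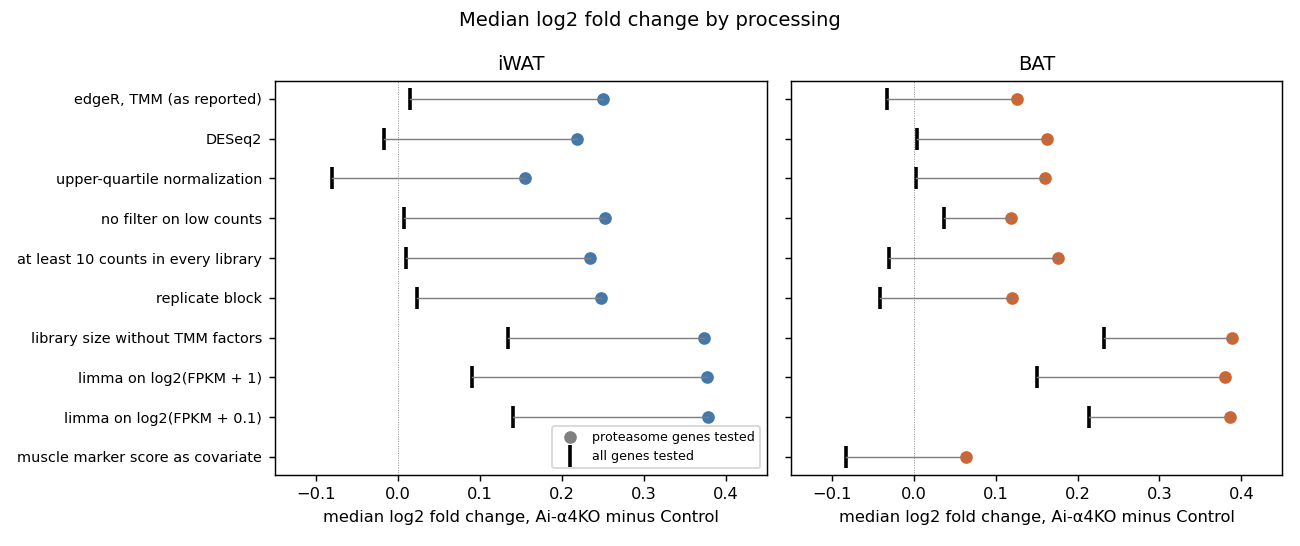
Median log2 fold change (x axis) of the proteasome genes (points) and of all genes tested (bars) under each processing (rows). Both medians shift together when composition factors are left out, from 0.25 to 0.37 for the proteasome genes in iWAT and from 0.13 to 0.39 in BAT.

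Most genes of the alpha ring had higher estimates in Ai-α4KO iWAT. Of the 8, Psma4, Psma5, Psma7 and Psma8 were called in iWAT, and Psma5 and Psma8 in BAT. These were 50% and 25% of the 8 genes, or 42.9% and 14.3% of the 7 constitutive genes without Psma8. Of all genes tested, 21.5% in iWAT and 25% in BAT were higher. Psma5, a constitutive subunit of the ring (chromosome 3 from 108256926 to 108279952), was at 91.2, 101.0, 115, 119.6 and 109 CPM in Control and 151, 191, 165, 137 and 154 CPM in Ai-α4KO iWAT libraries 1 to 5, a log2 fold change of 0.58 (SE 0.11, adjusted p = 0.0014). In BAT it was at 91.6, 99.98, 100.5, 82.8 and 89.6 CPM in Control and 153, 143, 147, 155 and 138 CPM in Ai-α4KO libraries, a log2 fold change of 0.66 (SE 0.09, adjusted p = 7.20e-05). Every Ai-α4KO library was above every Control library in both tissues. Psma4, another ring subunit, rose by 0.66 (SE 0.15, adjusted p = 0.0025) in iWAT, from 186 ± 30.6 to 294 ± 42.2 CPM (SD, n = 5 each), and its estimate in BAT was 0.23 (adjusted p = 0.19). Psma7 rose by 0.45 (SE 0.11, adjusted p = 0.0052) in iWAT, a call lost without Control libraries 1, 2, 3 or 5 or Ai-α4KO libraries 2, 3 or 5 (adjusted p up to 0.021). Its estimate in BAT was 0.34 (adjusted p = 0.021). Psma4, Psma5 and Psma7 were singled out after their values were seen. The lowest estimates in the ring were those of Psma6 in iWAT, -0.01 (adjusted p = 0.97), and of Psma2 in BAT, -0.15 (adjusted p = 0.32). Psma2 in iWAT was at 0.29 (adjusted p = 0.038).

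Psma8, a close copy of Psma7 known from the testis, had the largest log2 fold change of the 42 genes and a very low level. Its raw counts in iWAT were 11, 19, 7, 9 and 14 in Control and 30, 98, 99, 89 and 56 in Ai-α4KO libraries, a fitted log2 fold change of 2.30. In BAT they were 0, 1, 4, 3 and 1 in Control and 22, 53, 26, 25 and 43 in Ai-α4KO libraries, so the genotypes did not overlap in either tissue. The fitted log2 fold change in BAT was 3.78 and rests on 9 counts in Control. In neither tissue did all Control libraries hold 10 counts, and the gene passed the filter on low counts only through its Ai-α4KO libraries, so its calls support nothing further. Per total count the summed ratio was 17.2 (exact 95% interval 8.87 to 38.4) in BAT and 5.52 (4.19 to 7.37) in iWAT, intervals that cover counting error only. Reads of the alpha genes that are alike could be shared in the counting, and Psma7 in Ai-α4KO iWAT was at 153 ± 17.04 CPM, against 1.85 ± 0.721 CPM of Psma8 (SD, n = 5), so the value of Psma8 is uncertain. With at least 10 counts required in every library the gene was not tested, and with the muscle marker score in the fit its estimate in BAT was 3.34 (adjusted p = 0.011 from edgeR).

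By edgeR within each tissue the constitutive beta ring held 0 genes that were higher, where 21.5% of all genes in iWAT and 25% in BAT were. The 7 genes of the ring are too few to set against these shares. DESeq2 also called 0 higher, and library size alone called 1 in iWAT and 2 in BAT. Of the 7 genes tested, 2 in iWAT and 5 in BAT had an unadjusted edgeR p below 0.05 in either direction. In these fits the ring's only gene called by edgeR was Psmb3, lower in BAT, and DESeq2 called 2 lower there. Other edgeR fits called Psmb7 lower in iWAT (without Control library 1, or without Control libraries 1 and 4). The fit of all 20 libraries called Psmb2 higher in iWAT. Psmb3, a beta subunit without a cutting site (chromosome 11 from 97703434 to 97713500), was at 226, 207, 214, 209 and 192 CPM in Control and 131, 129, 132, 157 and 137 CPM in Ai-α4KO BAT libraries 1 to 5, a log2 fold change of -0.61 (SE 0.10, adjusted p = 1.93e-04) with no overlap. In iWAT the genotypes overlapped, at 138 ± 17.2 and 125 ± 26.7 CPM (SD, n = 5 each), which differed by -0.13 (adjusted p = 0.47) on the log2 scale. Psmb5, the chymotrypsin-like subunit (chromosome 14 from 54614120 to 54617995), was at 172, 153, 150.1, 162 and 134 CPM in Control and 129.7, 134, 121, 108 and 145 CPM in Ai-α4KO BAT, a log2 fold change of -0.27 (SE 0.11, adjusted p = 0.047). The ranges overlapped through Control library 5 and Ai-α4KO library 5. In iWAT it was at -0.15 (SE 0.18, adjusted p = 0.52). Psmb6, the caspase-like subunit (chromosome 11 from 70525357 to 70527858), was at 208, 168, 177, 195 and 179 CPM in Control and 149, 141, 136, 162 and 162 CPM in Ai-α4KO BAT, without overlap, but its log2 fold change of -0.31 (SE 0.10, adjusted p = 0.021) missed the threshold. In iWAT it was at -0.10 (SE 0.16, adjusted p = 0.64). Psmb7, the trypsin-like subunit, was at -0.31 (SE 0.11, adjusted p = 0.035) in iWAT and -0.31 (SE 0.14, adjusted p = 0.061) in BAT. All 6 estimates of the catalytic subunits were below 0 and none passed in these fits of 5 against 5 libraries. Under library size alone they ran from -0.18 (Psmb7 in iWAT) to 0.03 (Psmb6 in iWAT), where the sign of Psmb6 turned, and none passed there either. The highest estimate of the ring was that of Psmb2 in iWAT, 0.35 (adjusted p = 0.031), and that of Psmb1 in BAT, 0.12 (adjusted p = 0.36). Psmb11, the beta subunit of the thymus, had 4 counts in all 20 libraries together and was not tested.

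**Figure D3:**
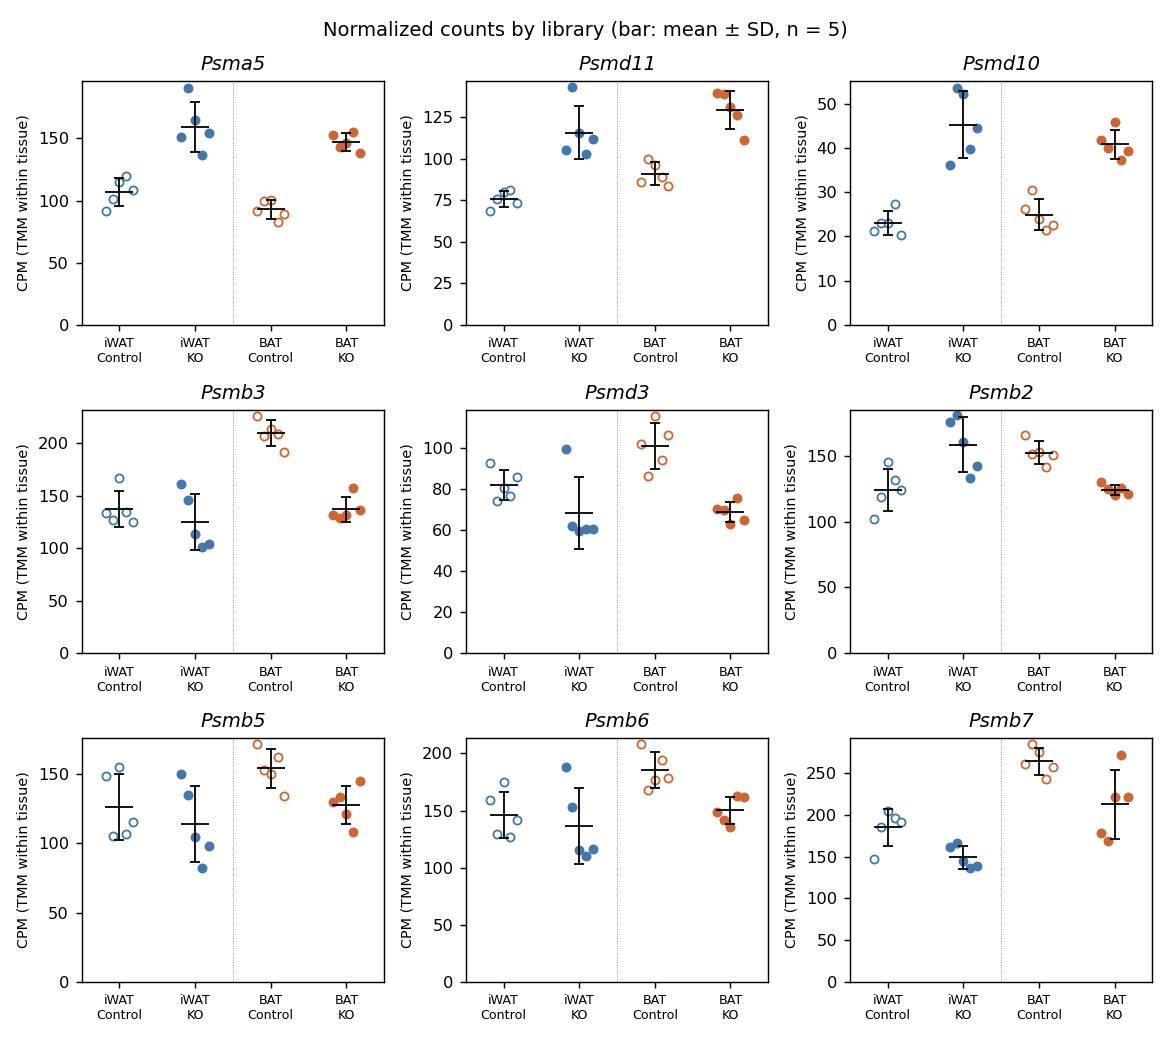
CPM (y axes, from 0) of 9 proteasome genes in each library, with the mean ± SD of 5 libraries per group, open points for Control and filled for Ai-α4KO (KO). Psma5, Psmd11 and Psmd10 do not overlap between genotypes in either tissue, Psmb3 and Psmd3 separate in BAT, and the catalytic Psmb5 and Psmb7 overlap in BAT.

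Within each library the alpha and beta rings could be compared with each other. The mean log2 CPM of Psma1 to Psma7 minus that of Psmb1 to Psmb7, from which the scaling of a library cancels, was -0.09, 0.16, 0.09, -0.17 and -0.01 in Control BAT and 0.32, 0.26, 0.62, 0.42 and 0.29 in Ai-α4KO BAT libraries 1 to 5. All 5 Ai-α4KO BAT libraries were above all 5 Control BAT libraries. In iWAT the difference was -0.15, 0.21, 0.01, 0.36 and 0.19 in Control and 0.12, 0.43, 0.65, 0.55 and 0.66 in Ai-α4KO libraries, and these overlapped. The lowest Ai-α4KO iWAT value was that of library 1, with high muscle markers, and the highest and lowest Control values were those of libraries 4 and 1, with high lymphocyte markers. The alpha ring's mean in iWAT was 7.33 ± 0.19 in Control and 7.69 ± 0.15 in Ai-α4KO (SD, n = 5 each), while the beta ring's was 7.21 ± 0.13 and 7.21 ± 0.21. In BAT the alpha ring's mean was 7.52 ± 0.14 and 7.67 ± 0.18, and the beta ring's 7.52 ± 0.07 and 7.29 ± 0.08. These means are a description of the 14 constitutive genes, chosen after their values were seen, and were given no test. Across the 42 genes the log2 fold change was related to the GC content of the transcript with Spearman's rho = -0.42 in iWAT and -0.41 in BAT, where all genes with a GC value had -0.25 and -0.14. With the width of the transcript Spearman's rho was 0.05 in iWAT and 0.32 in BAT (0.54 in BAT over the 31 constitutive subunits), against 0.02 and -0.03 over all genes. These points share the same libraries, and the parts of base composition and length in the difference between the rings were not tested.

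**Figure D4:**
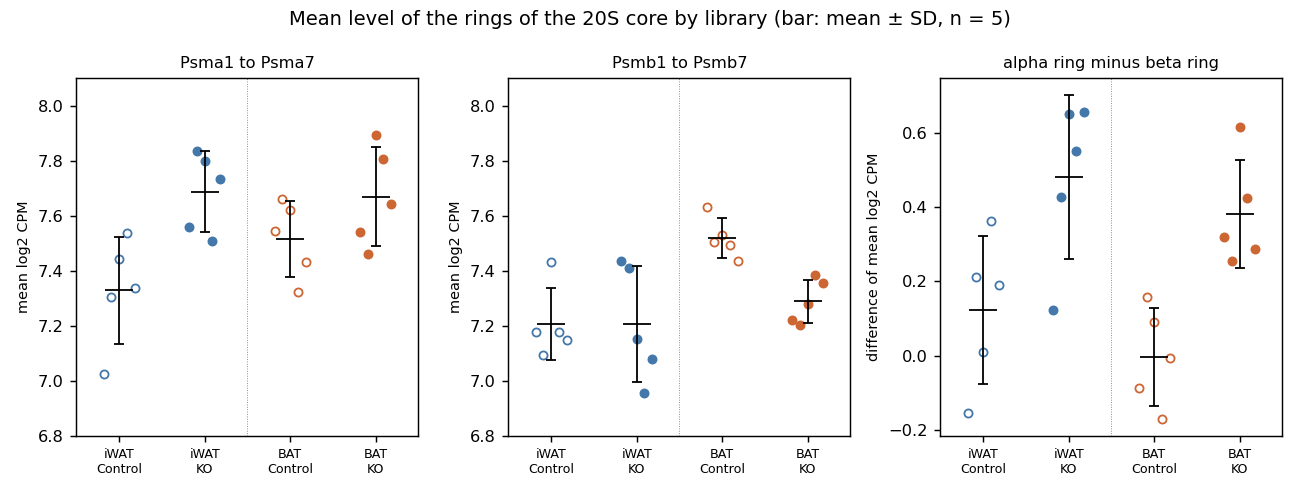
Mean log2 CPM of the constitutive alpha and beta rings and their difference (y axes) in each library, with the mean ± SD of 5 libraries per group, open points for Control and filled for Ai-α4KO (KO). In BAT the alpha minus beta difference runs from -0.17 to 0.16 in Control and from 0.26 to 0.62 in Ai-α4KO.

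Of the 6 ATPases of the 19S particle, 1 (Psmc2), or 16.7%, was higher in iWAT and 0 passed in BAT. Of all genes tested, 21.5% in iWAT and 25% in BAT were higher. For the ATPases in BAT DESeq2 also gave 0, library size alone gave 4 higher, and 0 of the 6 had an unadjusted edgeR p below 0.05. Psmc2, one of the ATPases that pull substrates into the core, was at 105, 103, 121, 124 and 118 CPM in Control and 153, 148, 146, 134 and 142 CPM in Ai-α4KO iWAT, without overlap, a log2 fold change of 0.34 (SE 0.09, adjusted p = 0.0074). The call was lost when any library but Control 4 or Ai-α4KO 4 was left out, with an adjusted p up to 0.039 without Control library 1. The highest estimate was that of Psmc6 in iWAT, 0.42 (adjusted p = 0.02), with 0.10 (adjusted p = 0.59) in BAT. The lowest were those of Psmc5 in iWAT, -0.03 (adjusted p = 0.84), and of Psmc4 in BAT, 0.05 (adjusted p = 0.72).

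Of the 11 other 19S subunits, Psmd8, Psmd11 and Psmd14 were higher in iWAT, Psmd6, Psmd7 and Psmd11 were higher in BAT, and Psmd3 was lower in BAT. The share higher was 27.3% in each tissue, against 21.5% of all genes in iWAT and 25% in BAT. The share lower in BAT was 9.09%, against 24.8% of all genes. Psmd11, a scaffold subunit that clamps the 19S particle to the core (chromosome 11 from 80428615 to 80472133), was at 68.7, 75.6, 80.2, 80.9 and 73.2 CPM in Control and 105, 143, 115, 103 and 112 CPM in Ai-α4KO iWAT libraries 1 to 5, a log2 fold change of 0.61 (SE 0.11, adjusted p = 5.49e-04). In BAT it was at 86.3, 99.9, 96.3, 89.1 and 83.7 CPM in Control and 139, 139, 131, 126 and 111 CPM in Ai-α4KO libraries, a log2 fold change of 0.51 (SE 0.10, adjusted p = 9.31e-04). The genotypes did not overlap in either tissue, and with the muscle marker score in the fit the estimate in BAT was 0.52, about as large (adjusted p = 0.021 from edgeR). Psmd14, the enzyme that cuts ubiquitin chains off the substrate, rose in iWAT by 0.59 (SE 0.10, adjusted p = 6.28e-04) and was at 0.33 (adjusted p = 0.036) in BAT. Psmd7, the partner with which Psmd14 forms a dimer, was at 0.24 (adjusted p = 0.067) in iWAT and higher in BAT by 0.38 (SE 0.11, adjusted p = 0.0088). Psmd7, Psmd8 and Psmd14 were singled out after their values were seen. Psmd3, also a scaffold subunit of the lid (chromosome 11 from 98682554 to 98695978), was at 102, 86.3, 115, 94.1 and 106 CPM in Control and 70.3, 69.7, 63.1, 75.5 and 65.0 CPM in Ai-α4KO BAT libraries, a log2 fold change of -0.55 (SE 0.10, adjusted p = 6.29e-04), without overlap. It did not pass under library size alone, at -0.29 (adjusted p = 0.040), nor with the muscle marker score, at -0.54 (adjusted p = 0.021), both from edgeR. In iWAT it was at -0.26 (adjusted p = 0.16), and at 99.2 CPM in Ai-α4KO library 1 against 59.4 to 61.7 CPM in the other 4. Psmd6, a further lid subunit, was at 92.8, 126, 105, 77.5 and 87.0 CPM in Control and 122, 129, 154, 202 and 134 CPM in Ai-α4KO BAT libraries, with Control library 2 inside the Ai-α4KO range, a log2 fold change of 0.60 (SE 0.17, adjusted p = 0.0081). Ai-α4KO BAT library 4, the highest for Psmd6, also had the highest muscle markers, and with the muscle marker score the estimate was 0.33 (adjusted p = 0.30 from edgeR). The calls of Psmd6, Psmd7 and Psmd8 were lost when single libraries were left out, in 6 of 10 fits for Psmd6 (Control libraries 1, 3, 4 and 5 and Ai-α4KO libraries 3 and 5), 8 of 10 for Psmd7 (all but Ai-α4KO libraries 2 and 4) and 7 of 10 for Psmd8 (Control libraries 1, 2, 4 and 5 and Ai-α4KO libraries 2, 3 and 5), with adjusted p up to 0.029.

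Apart from Psma8, the largest rise of the 42 genes was that of Psmd10 in both tissues. Psmd10, or gankyrin, is a chaperone of 19S assembly that is also known to bind the retinoblastoma protein (chromosome X from 140948425 to 140956711). It was at 21.2, 23.0, 22.9, 27.3 and 20.3 CPM in Control and 36.2, 53.5, 52.2, 39.9 and 44.6 CPM in Ai-α4KO iWAT libraries 1 to 5, a log2 fold change of 0.98 (SE 0.13, adjusted p = 9.03e-05). In BAT it was at 26.2, 30.4, 24.0, 21.5 and 22.5 CPM in Control and 41.8, 39.9, 45.8, 37.2 and 39.3 CPM in Ai-α4KO libraries, a log2 fold change of 0.71 (SE 0.12, adjusted p = 2.25e-04). No library of one genotype reached the other in either tissue, and its estimate in BAT with the muscle marker score was 0.75 (adjusted p = 0.0058 from edgeR). The other chaperones of 19S assembly did not pass in either tissue. Psmd5 was at 0.31 (adjusted p = 0.13) in iWAT and 0.36 (adjusted p = 0.024) in BAT, and Psmd9 at -0.14 (adjusted p = 0.33) and -0.24 (adjusted p = 0.082).

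None of the 6 activators and inhibitors passed the threshold in either tissue by edgeR or DESeq2, with 4 of 6 in iWAT and 2 of 6 in BAT at an unadjusted edgeR p below 0.05. Other fits in edgeR called some of them in iWAT, Psme4 higher with the replicate block or without Ai-α4KO library 1, and Psmf1 lower with upper-quartile scaling or without Control library 1, and library size alone called 2 higher in each tissue. Psme4, an activator of proteasomes of the nucleus, had the highest estimates, 0.37 (adjusted p = 0.023) in iWAT and 0.37 (adjusted p = 0.052) in BAT. Psmf1, known as an inhibitor of the core in the test tube, had the lowest in iWAT. It was at 31.3, 31.7, 34.3, 34.3 and 36.5 CPM in Control and 29.6, 25.5, 30.2, 28.8 and 28.3 CPM in Ai-α4KO iWAT, without overlap, a log2 fold change of -0.24 (SE 0.08, adjusted p = 0.031), and at -0.21 (adjusted p = 0.08) in BAT. Psme1 and Psme2, which form the interferon-inducible cap, were at 0.22 (adjusted p = 0.1) and 0.24 (adjusted p = 0.073) in iWAT and at 0.08 (adjusted p = 0.48) and 0.21 (adjusted p = 0.12) in BAT. Psme2b, a near copy of Psme2 that may share its reads, was at 0.30 (adjusted p = 0.03) and 0.16 (adjusted p = 0.3). Psme3, a nuclear relative of these caps, was at 0.11 (adjusted p = 0.22) in iWAT and -0.23 (adjusted p = 0.04) in BAT. Psmc3ip, the recombination factor, was at 0.54 (adjusted p = 0.054) and 0.43 (adjusted p = 0.19), with means of 1.44 to 2.10 CPM.

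One of the 42 genes differed between tissues in its response to genotype at the threshold, where 4.86% of the 15230 genes tested did, and this call was lost in most fits that left out a library. Psmb2, a beta subunit without a cutting site, was at 102, 118, 145, 132 and 124 CPM in Control and 175, 181, 160.5, 133 and 142 CPM in Ai-α4KO iWAT libraries 1 to 5, and at 166, 151, 153, 141 and 151 CPM in Control and 129.7, 125, 119.9, 125 and 121 CPM in Ai-α4KO BAT libraries. The ranges overlapped in iWAT, while every Ai-α4KO BAT library was below every Control BAT library. In edgeR fits of each tissue alone neither difference passed, at 0.35 (SE 0.12, adjusted p = 0.031) in iWAT and -0.29 (SE 0.09, adjusted p = 0.012) in BAT. DESeq2 called Psmb2 lower in BAT, and the edgeR fit of all 20 libraries called it higher in iWAT. The interaction, BAT minus iWAT in a fit of all 20 libraries, was -0.62 (SE 0.14, adjusted p = 0.0083). It was lost in 18 of the 20 fits that left out 1 library, all but those without Control iWAT library 3 or Control BAT library 4, with adjusted p up to 0.050 without Ai-α4KO iWAT library 2. It was also lost under library size alone, at -0.51 (adjusted p = 0.022 from edgeR). The next, Psmd8 and Psme3, were at -0.48 (SE 0.14, adjusted p = 0.032) and -0.31 (SE 0.10, adjusted p = 0.04).

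Between the Control tissues, 14 of the 42 genes tested, or 33.3%, were higher in BAT than in iWAT and 1 was lower, where 17.5% of all genes were higher and 21% lower. By role the 14 were 4 of the 7 constitutive beta genes, 3 of the 7 constitutive alpha genes, 1 of the 6 ATPases, 4 of the 11 other 19S subunits and 2 of the 6 activators. The median log2 difference of the 42 was 0.24, and that of all genes 0.00. Of the genes higher in BAT, Psmd8, a lid subunit, had the largest difference, 0.77 (SE 0.10, adjusted p = 4.55e-06). Psmc6 followed at 0.76 (SE 0.15, adjusted p = 2.39e-04) and Psmb3 at 0.76 (SE 0.12, adjusted p = 4.36e-05). Among catalytic genes Psmb7 was higher by 0.67 (SE 0.12, adjusted p = 1.50e-04) and Psmb6 by 0.50 (SE 0.14, adjusted p = 0.0048), while Psmb5 was at 0.45 (SE 0.15, adjusted p = 0.018). Psme3 and Psme4 were higher in BAT by 0.53 (SE 0.07, adjusted p = 4.10e-06) and 0.58 (SE 0.14, adjusted p = 0.0023). The gene called lower was Psma8, with 9 counts in Control BAT and 60 in Control iWAT. It entered this fit only through its Ai-α4KO libraries and was not called by limma on log2(FPKM + 1), so its call supports nothing. Markers of other cells moved with this contrast. All 6 macrophage, 6 B cell, 5 T cell, 5 stromal and 5 cell cycle markers were lower in Control BAT than in Control iWAT (medians -2.54, -6.07, -4.80, -1.88 and -2.01), while all 5 brown adipocyte markers (3.99) and 3 of 4 endothelial markers (0.89) were higher. All 6 muscle markers had estimates above 0 (median 2.04), and none passed by edgeR (1 had an unadjusted p below 0.05). Their part in it was not tested. The contrast also moved with the scaling. Under library size alone the median of all genes was -0.23, 6 proteasome genes were higher in BAT and 3 lower. The calls of Psmb6 and Psmd3 were lost without single libraries (Psmb6 without Control BAT 1 or 4 or Control iWAT 2, 4 or 5, adjusted p up to 0.015, and Psmd3 without Control BAT 1, 3 or 5 or Control iWAT 2, 3 or 4, adjusted p up to 0.019), and that of Psmd12 without Control BAT library 2 (adjusted p = 0.011). Under library size alone Psmb6 was at 0.28 (adjusted p = 0.10 from edgeR) and Psme4 at 0.35 (adjusted p = 0.025), and without Control iWAT libraries 1 and 4, with high lymphocyte markers, their adjusted p was 0.030 and 0.015 (edgeR). Psmb3, higher in Control BAT than in Control iWAT, was also the beta gene lower in Ai-α4KO BAT. In the fit of all libraries its means were 129 CPM in Control iWAT and 118 with the knockout there, 219.7 in Control BAT and 147 in Ai-α4KO BAT, and the interaction was -0.45 (SE 0.17, adjusted p = 0.086).

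Levels of different genes were compared as FPKM, the deposited value per transcript length. Over the 10 Control libraries the 31 constitutive subunits of the core and the 19S particle spanned a mean of 35.2 to 211 FPKM, a 5.99-fold range. Over both Control tissues Psma6, Psmb3 and Psmb7 had the highest means of the 43 genes, and Psme2, an activator, came next at 189 FPKM. In Control iWAT alone Psme2 was highest, at 203 ± 22.6 FPKM, above Psma6 by less than their SDs. Psma6 was at 191 ± 28.7 FPKM in Control iWAT and 230.3 ± 13.0 in Control BAT, Psmb3 at 158 ± 10.9 and 233 ± 14.6, and Psmb7 at 161 ± 15.8 and 221 ± 8.68 (SD, n = 5 each), so that in Control BAT Psma6, Psmb3 and Psmb7 differed by less than the largest of their SDs. Psmc3ip, Psma8 and Psmb11 were lowest, at 1.24, 0.110 and 0.00071 FPKM over the Control libraries. Psmd3 was the lowest constitutive subunit, at 32.3 ± 3.90 FPKM in Control iWAT and 38.1 ± 4.02 in Control BAT, and it was among the genes lower in Ai-α4KO BAT. The chaperones of 19S assembly were below every constitutive subunit in the Control mean, with Psmd5 at 24.2 ± 6.05 FPKM in Control iWAT, Psmd10 at 13.3 ± 1.80 and Psmd9 at 9.34 ± 0.707.

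Of 6 ratios of an inducible to a constitutive catalytic subunit, 5 were higher in Ai-α4KO, 1 of which (Psmb10 to Psmb7 in BAT) missed the threshold in 7 of 10 fits without 1 library, and Psmb9 to Psmb6 in iWAT did not pass. Psmb8, Psmb9 and Psmb10 replace Psmb5, Psmb6 and Psmb7 in the immunoproteasome, the form that immune cells carry and that interferon induces, and their FPKM ratios were compared as the 6 tests of a family. In BAT the ratio of Psmb8 to Psmb5 was 0.137, 0.156, 0.119, 0.207 and 0.246 in Control and 0.437, 0.368, 0.373, 0.339 and 0.392 in Ai-α4KO libraries 1 to 5, higher by 1.19 on the log2 scale (exact permutation test, two-sided, p = 0.0079, adjusted p = 0.016 over 6 ratios). All 5 Ai-α4KO libraries were above all Control libraries, and this p is the smallest that 5 against 5 allow. The ratio of Psmb9 to Psmb6 in BAT was 0.0945, 0.103, 0.0940, 0.143 and 0.174 in Control and 0.273, 0.264, 0.316, 0.190 and 0.301 in Ai-α4KO libraries, without overlap, higher by 1.17 on the log2 scale (exact permutation test, two-sided, p = 0.0079, adjusted p = 0.016 over 6 ratios). The ratio of Psmb10 to Psmb7 in BAT was 0.101, 0.0643, 0.0754, 0.116 and 0.116 in Control and 0.252, 0.238, 0.181, 0.113 and 0.183 in Ai-α4KO libraries, with Ai-α4KO library 4 among the Control values, higher by 1.02 on the log2 scale (exact permutation test, two-sided, p = 0.024, adjusted p = 0.029 over 6 ratios). Its adjusted p was 0.057 without any of Control libraries 1, 2 or 3 or Ai-α4KO libraries 1, 2, 3 or 5, while the difference stayed between 0.89 and 1.20 whichever library was left out.

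In iWAT the ratio of Psmb10 to Psmb7 was 0.337, 0.173, 0.182, 0.217 and 0.214 in Control and 0.540, 0.402, 0.405, 0.385 and 0.396 in Ai-α4KO libraries 1 to 5, without overlap, higher by 0.95 on the log2 scale (exact permutation test, two-sided, p = 0.0079, adjusted p = 0.016 over 6 ratios). The ratio of Psmb8 to Psmb5 in iWAT was 0.630, 0.464, 0.307, 0.669 and 0.436 in Control and 0.674, 0.632, 0.820, 0.897 and 0.746 in Ai-α4KO libraries, higher by 0.63 on the log2 scale (exact permutation test, two-sided, p = 0.016, adjusted p = 0.024 over 6 ratios). Control libraries 1 and 4, with high lymphocyte markers, had the highest Control ratios, and that of library 4 was above Ai-α4KO library 2. The ratio of Psmb9 to Psmb6 in iWAT was 0.408, 0.323, 0.272, 0.512 and 0.370 in Control and 0.364, 0.441, 0.531, 0.481 and 0.463 in Ai-α4KO libraries and did not pass, with a difference of 0.30 on the log2 scale (exact permutation test, two-sided, p = 0.14, adjusted p = 0.14 over 6 ratios). Without Control library 4 the difference was 0.42 (exact permutation test, two-sided, adjusted p = 0.048), and without Control libraries 1 and 4 it was 0.50 (adjusted p = 0.071, same exact test). On their own, Psmb8, Psmb9 and Psmb10 were higher in Ai-α4KO BAT by log2 fold changes of 0.89 (adjusted p = 0.0012), 0.83 (adjusted p = 0.0027) and 0.67 (adjusted p = 0.0022). In iWAT Psmb10 was higher, 0.66 (adjusted p = 0.0044), while Psmb8 was at 0.43 (adjusted p = 0.083) and Psmb9 at 0.17 (adjusted p = 0.34). The call of Psmb10 in iWAT was lost without Control libraries 2, 3 or 5 or Ai-α4KO library 2 (adjusted p up to 0.017). Macrophage markers, whose values are given above, moved with these ratios in both tissues, and their part was not tested. With the muscle marker score in the fit Psmb8, Psmb9 and Psmb10 had log2 fold changes of 0.88, 0.72 and 0.84 in BAT, near those above. Their adjusted p of 0.025, 0.068 and 0.010 from edgeR missed the threshold of 0.01 used for single genes.

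**Figure D5:**
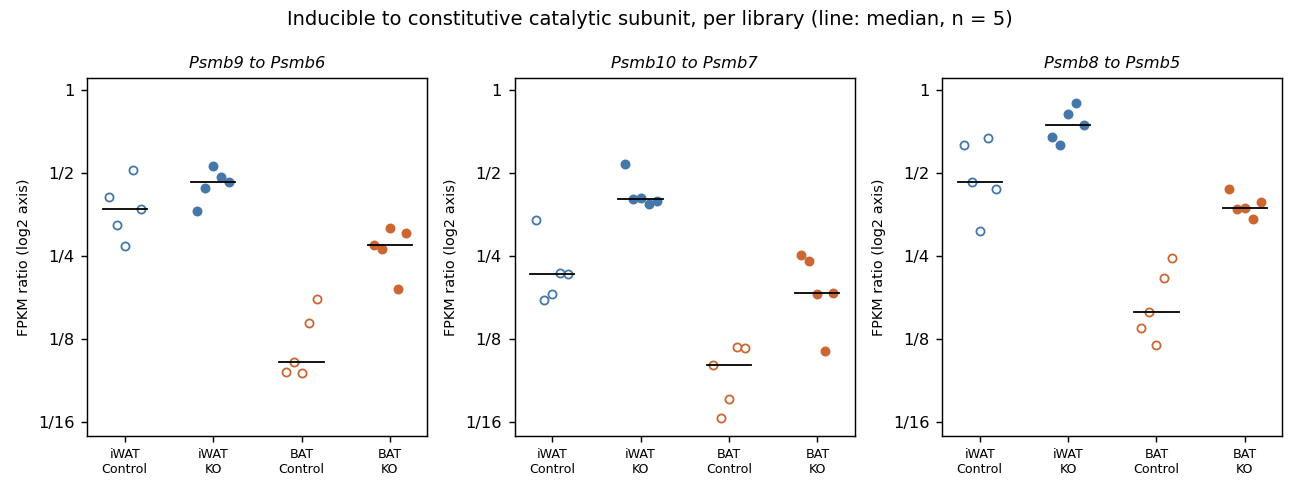
FPKM ratio of each inducible catalytic subunit to the constitutive one it replaces (y axis, log2 scale) in each library, with the median of 5 libraries as a line, open points for Control and filled for Ai-α4KO (KO). In BAT the ratios of Psmb9 to Psmb6 and Psmb8 to Psmb5 do not overlap between genotypes, and the median of Psmb8 to Psmb5 goes from 0.156 to 0.373.

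Among 10 genes known to control transcription of the proteasome, 3 were higher and 1 was lower in each tissue, or 30% and 10%, where 21.5% and 18.8% of all genes were in iWAT and 25% and 24.8% in BAT. Nfe2l1, the CNC-bZIP factor that raises proteasome genes when activity is short, was at 441, 407, 384, 408 and 527 CPM in Control and 341, 245, 236, 294 and 240.0 CPM in Ai-α4KO iWAT, a log2 fold change of -0.68 (SE 0.14, adjusted p = 0.0015). In BAT it was at 475, 473, 596, 519 and 615 CPM in Control and 318, 282, 288, 393 and 279 CPM in Ai-α4KO libraries, a log2 fold change of -0.78 (SE 0.14, adjusted p = 3.50e-04). The genotypes did not overlap in either tissue. Its relative Nfe2l2, the factor of the oxidative stress response, was higher, by 0.76 (adjusted p = 7.39e-04) in iWAT and 0.73 (adjusted p = 1.95e-04) in BAT, again without overlap, and with the muscle marker score the estimate in BAT was 0.66 (adjusted p = 0.011 from edgeR). Bach1, a repressor that binds the same motif, was higher by 1.79 (adjusted p = 2.12e-06) and 1.29 (adjusted p = 1.53e-06). Ddi2, the protease that cuts Nfe2l1 free, was at 0.60 (adjusted p = 0.022) in iWAT and 0.17 (adjusted p = 0.73) in BAT, and Ngly1, which removes its sugars, at -0.06 (adjusted p = 0.62) and -0.27 (adjusted p = 0.073). Nfe2l3, a further relative, was at no more than 4.48 CPM in any library and differed between genotypes by 1.83 (adjusted p = 0.14) in iWAT, where 1 library (Ai-α4KO 1) held the highest value and the estimate without it was 0.31 (adjusted p = 0.76 from edgeR), and by -0.32 (adjusted p = 0.51) in BAT. Of the 6 proteasome genes whose promoter windows held TGACNNNGC, which were Psmb5 and Psmb6 with the sequences given above and Psmc6, Psmd9, Psmd12 and Psme4, none passed in either tissue by edgeR or DESeq2, where 21.5% of all genes in iWAT and 25% in BAT were higher by edgeR. With library size alone Psmc6 and Psme4 were higher in iWAT and Psmd12 and Psme4 in BAT, and without Ai-α4KO iWAT library 1 Psmc6 and Psme4 were higher in iWAT. Their estimates ran from -0.15 (Psmb5) to 0.42 (Psmc6) in iWAT and from -0.31 (Psmb6) to 0.37 (Psme4) in BAT.

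Of 5 assembly chaperones of the core, 1 was higher in iWAT, and in BAT 1 was higher and 1 lower, or 20% each. Of all genes, 21.5% were higher in iWAT, and 25% were higher and 24.8% lower in BAT. Pomp, the maturation factor that is the first substrate of the new core, was at 123, 125, 112, 103 and 111 CPM in Control and 182, 167, 213, 209 and 185 CPM in Ai-α4KO BAT, without overlap, a log2 fold change of 0.74 (SE 0.11, adjusted p = 8.66e-05), and it was also higher in iWAT, by 0.49 (adjusted p = 0.006), a call lost without Control libraries 1, 2, 3 or 5 or Ai-α4KO libraries 2, 3 or 5 (adjusted p up to 0.022). Psmg1, which guides assembly of the alpha ring, was lower in BAT, at -0.72 (adjusted p = 1.86e-04), and at -0.30 (adjusted p = 0.026) in iWAT, and with the muscle marker score it was at -0.63 in BAT (adjusted p = 0.015 from edgeR). Its partner Psmg2 was at 0.28 (adjusted p = 0.054) in iWAT and 0.37 (adjusted p = 0.057) in BAT. Psmg3 and Psmg4 did not pass in either tissue, with estimates of 0.06 to 0.26. Of 14 proteins that associate with the proteasome, 5 were higher and 3 lower in iWAT, and 3 were higher and 2 lower in BAT. These shares were 35.7% and 21.4% in iWAT and 21.4% and 14.3% in BAT, beside the same shares of all genes. Shfm1, the smallest 19S subunit, was higher in iWAT by 0.78 (adjusted p = 6.37e-04) and at 0.40 (adjusted p = 0.011) in BAT. Adrm1, a ubiquitin receptor of the 19S particle, was at -0.48 (adjusted p = 0.02) and -0.41 (adjusted p = 0.013). Among shuttle factors that carry ubiquitinated proteins to the proteasome, Rad23b was higher in both tissues, by 0.68 (adjusted p = 1.02e-04) and 0.60 (adjusted p = 0.0037). Ubqln4 was lower in both, at -0.52 (adjusted p = 3.10e-04) and -0.95 (adjusted p = 2.77e-05), and so was Ubqln1, at -0.34 (adjusted p = 0.0056) and -0.43 (adjusted p = 0.0094), while Ubqln2 was higher in BAT, by 0.66 (adjusted p = 0.0023). Zfand5, an activator of the proteasome in wasting muscle, was higher by 0.61 (adjusted p = 0.005) and 0.93 (adjusted p = 0.0072). Some of these calls rested on single libraries. In iWAT that of Ubqln1 was lost without Control 2 or 4 or Ai-α4KO 2, 3 or 5 (adjusted p up to 0.020) and that of Zfand5 without Control 1, 3 or 5 or Ai-α4KO 2, 3 or 5 (up to 0.017). In BAT that of Rad23b was lost without Control 1 or 4 (up to 0.012), that of Ubqln1 without any but Control 5 or Ai-α4KO 3 (up to 0.036), and that of Zfand5 without Control 1, 3, 4 or 5 or Ai-α4KO 3, 4 or 5 (up to 0.021). With the muscle marker score the estimates in BAT were 0.43 for Rad23b, 0.50 for Ubqln2, -0.40 for Ubqln1 and 0.30 for Zfand5, with adjusted p of 0.13, 0.11, 0.11 and 0.49 from edgeR. Ubqln1 also missed the threshold under library size alone, at -0.21 in iWAT and -0.16 in BAT (adjusted p = 0.047 and 0.27).

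Rps27a, which encodes ubiquitin fused to a ribosomal protein, was higher by 1.03 (adjusted p = 0.0046) in iWAT and 1.32 (adjusted p = 1.91e-05) in BAT. Its call in iWAT was lost without Control libraries 1, 2 or 3 or Ai-α4KO libraries 2, 3 or 5 (adjusted p up to 0.014), and it has processed copies that may share its reads. Ubb, a polyubiquitin gene, was at -0.08 (adjusted p = 0.8) in iWAT and -0.36 (adjusted p = 0.16) in BAT. Of the enzymes that activate ubiquitin, Uba6 was higher in iWAT by 1.03 (adjusted p = 7.27e-04), and Uba1 was lower in BAT, at -0.43 (adjusted p = 0.0095), a call lost in every fit without a library but those without Ai-α4KO 1 or 2 (adjusted p up to 0.054), under library size alone, at -0.16 (adjusted p = 0.39), and with the muscle marker score, at -0.31 (adjusted p = 0.20). Of 8 genes of the unfoldase p97 and its cofactors, 0 passed in iWAT and 2, or 25%, were lower in BAT, against 24.8% of all genes (DESeq2 also called 0 in iWAT, where 3 had an unadjusted edgeR p below 0.05). Vcp, which encodes p97, was at 0.00 (adjusted p = 1) and 0.10 (adjusted p = 0.5). The 2 lower in BAT were Ubxn1, -0.62 (adjusted p = 1.78e-04), and Ufd1l, -0.53 (adjusted p = 1.98e-04), which missed it under library size alone, at -0.36 and -0.27 (adjusted p = 0.017 and 0.022). With the muscle marker score Ubxn1 was at -0.48 (adjusted p = 0.020 from edgeR). The highest estimates were those of Ubxn4 in iWAT, 0.26 (adjusted p = 0.019), and Faf2 in iWAT, 0.19 (adjusted p = 0.055). Of 12 cytosolic chaperones, 2 were higher in iWAT and 3 in BAT, or 16.7% and 25%, against 21.5% and 25% of all genes. In either tissue 0 were lower by edgeR or DESeq2, with 7 in iWAT and 4 in BAT at an unadjusted edgeR p below 0.05 in either direction. Hsp90aa1, the inducible HSP90, rose in iWAT by 1.27 (adjusted p = 1.01e-05) and Hspa8, the constitutive HSP70, by 0.88 (adjusted p = 4.61e-04), while Hsp90ab1 was at 0.10 (adjusted p = 0.5) there. In BAT the highest were Cryab, 2.30 (adjusted p = 0.002), and Hspb8, 1.43 (adjusted p = 4.78e-04), small heat shock proteins abundant in muscle, beside the higher muscle markers of Ai-α4KO BAT. With the muscle marker score they were at 0.42 and 0.71 (adjusted p = 0.32 and 0.060 from edgeR). The lowest was Hspa1b, -0.68 (adjusted p = 0.39), at 55.6 and 35.8 CPM in Control libraries 1 and 2 and at 3.37 to 7.82 CPM in the other Control libraries, with a median of 7.82 CPM in Control and 12.8 CPM in Ai-α4KO. Without Control library 1 its estimate was 0.05 (adjusted p = 0.95 from edgeR). In iWAT Cryab was at 0.13 (adjusted p = 0.88), with 309 CPM in Ai-α4KO library 1, which had high muscle markers, and 27.4 to 54.0 CPM in the other 4. Without that library its estimate was -1.11 (adjusted p = 0.018 from edgeR).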

How the data were processed

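RNA-seq of 20 libraries was deposited as a table of 25219 genes. Its expected counts and FPKM were computed by the authors from stranded poly(A) libraries read as pairs of 150 bases. Processing notes in the labels name bcl2fastq 2, STAR 2.5.3a and mm10, and the counting program is not given in the sources used here. Of the expected counts above 0, 76.66% were whole within 1e-06, and all were rounded. Libraries were grouped by tissue and genotype, 5 per group. Genotypes were compared within tissue with edgeR 4.0.16 in R 4.3.3 (TMM, filterByExpr, quasi-likelihood test, adjusted p threshold 0.01), and the interaction and the contrast of Control tissues were taken from a fit of all 20. FPKM ratios were compared by exact permutation tests with a threshold of 0.05. DESeq2 1.42.0, limma 3.58.1 on log2 FPKM with pseudocounts of 1 and 0.1, other scalings and filters, a muscle covariate and left-out libraries were alternatives. The fits were tested on simulated data.

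The proteasome genes and pathway lists were chosen with earlier results of these data known. Genes were named with values if they were catalytic subunits, activators, inhibitors or untested, had the highest or lowest fold change of a role in a tissue, passed the interaction or had the 3 highest or lowest Control FPKM, and in long pathway lists if they were among the 2 highest or 2 lowest. Genes without a promoter window were Psma8, Psmb1, Psmb2, Psmb7, Psmc3, Psmd3 and Psmd7. Some genes of the pathway lists are not reported here.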

Additional observations from a re-analysis of the deposited data

Results flagged for a closer look

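In 3 of the 104 sets of 5 libraries examined, 1 library lay far from the others by Dixon's criterion, which flags about 1 in 20 sets by chance. Psmb3 in Control iWAT was highest in library 3, at 167.4 CPM, with the others between 125.2 and 134.6 CPM, and in Ai-α4KO BAT it was highest in library 4, at 157.3 CPM, with the others between 129.1 and 136.5 CPM. Psmd3 in Ai-α4KO iWAT was highest in library 1, at 99.24 CPM, with the others between 59.4 and 61.74 CPM. Library 1 of Ai-α4KO iWAT and library 4 of Ai-α4KO BAT also had the highest muscle markers of their groups, and their part in these values was not tested.

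Psmb2 differed between the tissues in its response to genotype by the interaction test, with a log2 difference of -0.615297 (BAT minus iWAT, adjusted p = 0.0083 from edgeR), a call lost in 27 of 31 alternatives, among them 18 of the 20 fits without 1 library.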

How the results depend on the processing

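Counts of proteasome genes depended on the scaling. Composition factors were left out under library size alone and in limma on FPKM. With library size alone, 19 genes were higher in iWAT, 2 of them at least 2-fold, and 22 were higher and 1 lower in BAT, with medians of 0.373 and 0.3881. Limma on log2(FPKM + 1) called 23 higher in iWAT, and for BAT it called 22 higher (0 of them at least 2-fold) and 1 lower, with medians of 0.377 and 0.3795, where 26.2% and 33.3% of all genes were higher. With a pseudocount of 0.1 it called 22 higher in iWAT, 2 at least 2-fold, and for BAT 23 higher and 1 lower, with medians of 0.3789 and 0.386, where 26.3% and 33.6% of all genes were higher. Upper-quartile scaling gave 1 lower in iWAT (Psmf1). Requiring at least 10 counts in every library left 0 genes at least 2-fold higher in either tissue, since Psma8 was not tested. At an adjusted p below 0.05 iWAT had 17 genes higher and 2 lower, and BAT had 10 higher and 6 lower, against 28.5% and 26.2% of all genes in iWAT and 31.1% and 31.9% in BAT.

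For the contrast of Control tissues, 6 genes were higher in BAT and 3 lower with library size alone, 9 and 2 with upper-quartile scaling, 6 and 2 with limma at a pseudocount of 1, 6 and 3 at 0.1, and 2 were lower with DESeq2 or at an adjusted p below 0.05. Interactions numbered 3 at an adjusted p below 0.05 and 0 with library size alone, upper-quartile scaling, no filter, the minimum of 10 counts, either limma fit, without Control iWAT libraries 1 and 4, or without Control iWAT library 4 and Ai-α4KO iWAT library 1, a setting chosen after seeing the data.

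Without Control iWAT libraries 1 and 4, 1 gene was lower in iWAT. Without Control iWAT library 4 and Ai-α4KO iWAT library 1, 1 was lower and 2 were at least 2-fold higher. With the muscle marker score 2 were higher in BAT, 1 was lower and 0 were at least 2-fold higher. Leaving out each library in turn gave 6 to 10 genes higher in iWAT and 4 to 7 in BAT, 0 to 2 genes lower and 1 to 2 at least 2-fold higher in iWAT, and 0 to 1 interactions. It gave 0.1874 to 0.4164 for the log2 difference of the ratio of Psmb9 to Psmb6 in iWAT and 0.8912 to 1.2015 for that of Psmb10 to Psmb7 in BAT. Except where a setting removes genes, libraries or composition factors, the cause was not tested.

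Samples that share a replicate number did not deviate together (correlations of -0.451 to 0.244), and in 5 of 20 comparisons with another group a sample correlated best with its own number, so the numbers were not taken to pair them. The fit with a replicate block called 7 genes higher in iWAT, 6 of the 9 and Psme4. For BAT it called 4 higher and 2 lower, and it gave 0 interactions. Of 4144 values of single named genes under the alternatives, 3822 stayed on the same side of the threshold, 193 lost a call, 129 gained one and 0 reversed a call. Depth limits Psma8 and Psmb11, and Psme2 with Psme2b and Psma7 with Psma8 may share reads.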
